A study of Homo sapiens with 2 samples.

Results

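Clade B serpins of squamous epithelium are described here through 6 genes, SERPINB1, SERPINB3, SERPINB4, SERPINB5, SERPINB7 and SERPINB13, out of 33694 genes in the count matrix. They were found by symbol, and all 6 were present. They were chosen by gene family and by their measured levels in these same lines and ranges of cells, so the differences given here are descriptions.

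The cells were C1 cells, derived from HMLER, an immortalised human mammary epithelial line carrying an oncogenic RAS. C1-sgEED had been gene-edited at EED, a core subunit of Polycomb repressive complex 2, C1-sgKMT2D at KMT2D, an H3K4 methyltransferase, and C1-sgControl carried a control guide. All grew in a mixture of mammary epithelial, DMEM and F12 media with insulin, EGF, hydrocortisone, penicillin and streptomycin. The 3 lines were stained with hashtag antibodies and run as 1 droplet library, so each line is 1 sample. The same library held cells with a further hashtag, hashtag 2, which the labels assign to no line. They numbered 1935 after filters and are described apart from the 3 lines. The labels speak of mixed knockout clones, and how many clones a line held is not stated. The design text states that loss of either gene let stably epithelial C1 cells gain mesenchymal features.

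After filters, C1-sgEED had 2338 cells with a median of 3915 UMIs, C1-sgKMT2D had 2348 cells with 5526, and C1-sgControl had 1720 cells with 5672.5. A filter of 20% mitochondrial UMIs and 500 genes removed 6.78%, 5.89% and 27.2% of their barcodes in the same order. Cells were split by 2 genes. VIM-rich cells had more UMIs of VIM, a mesenchymal intermediate filament, than of KRT17, a basal and squamous keratin, and KRT17-rich cells had the reverse, with at least 5 UMIs of both together. VIM-rich cells numbered 1192 in C1-sgEED, 1143 in C1-sgKMT2D and 67 in C1-sgControl, and KRT17-rich cells numbered 1100, 1154 and 1619. These are ranges on a scale and not cell types: 6.95% of scored C1-sgEED cells, 13.6% of C1-sgKMT2D cells and 7.82% of C1-sgControl cells had a VIM share between 0.4 and 0.6. Within C1-sgEED, a list of 11 epithelial genes summed to 934 CPM (UMIs scaled to a common total) in VIM-rich and 6971 CPM in KRT17-rich cells. Within C1-sgKMT2D, it summed to 1905 and 8807 CPM. In C1-sgControl the VIM-rich cells still held 5483 CPM of that list and had no UMI of 6 of the 11 mesenchymal genes. Summed immune, endothelial and neural markers stayed at or below 1.96 CPM in every line and range, with PTPRC, CD3E, CDH5 and SOX10 at 0. EED and KMT2D themselves, at 13.4 and 5.02 CPM in the lines edited at them and at 13.6 and 4.63 CPM in C1-sgControl, do not check the edits, because a 3' count does not read the edited site. Within C1-sgEED, EED was at 5.75 CPM (3.79 to 8.36) in VIM-rich and 20.1 CPM (16.5 to 24.3) in KRT17-rich cells, and its part in differences between these ranges was not tested.

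Clade B serpins are the intracellular branch of the serpin superfamily. Most trap a protease by offering a reactive loop that the enzyme cuts and then cannot release, and a few have lost that activity. Several of them are made in stratified squamous epithelium, where they are thought to shield cells from proteases of their own lysosomes, of desquamation and of inflammatory cells.

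Of the 6 genes, 5 lie in the serpin cluster on the long arm of chromosome 18 (GRCh38, GENCODE v29). SERPINB5 spans chr18:63476761-63505085 and SERPINB13 chr18:63586989-63604639, both on the plus strand. SERPINB4 spans chr18:63637259-63644298 and SERPINB3 chr18:63655197-63661963, both on the minus strand. SERPINB3 lies within the span of SERPINB11 on the opposite strand, which reached at most 0.171 CPM in any line and range. SERPINB7 closes the row at chr18:63752935-63805376 on the plus strand. SERPINB1 lies apart at chr6:2832332-2842006 on the minus strand, beside SERPINB9 and SERPINB6. All are protein-coding.

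SERPINB3 and SERPINB4 are close copies, and their starts are shown because this pair carries the widest differences between the knockout lines. The 250 bases before each start (RefSeq, GRCh38.p14), read 5′ to 3′ on the minus strand, cover chr18:63661894-63662143 for SERPINB3 and chr18:63644257-63644506 for SERPINB4. They were identical at 247 of 250 aligned positions, or 98.8%, and capitals mark the 3 positions that differ.
SERPINB3: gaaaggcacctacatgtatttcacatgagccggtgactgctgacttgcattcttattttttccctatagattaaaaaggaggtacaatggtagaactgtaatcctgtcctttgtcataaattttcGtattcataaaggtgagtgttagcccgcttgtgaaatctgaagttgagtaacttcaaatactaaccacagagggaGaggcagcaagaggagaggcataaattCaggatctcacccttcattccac
SERPINB4: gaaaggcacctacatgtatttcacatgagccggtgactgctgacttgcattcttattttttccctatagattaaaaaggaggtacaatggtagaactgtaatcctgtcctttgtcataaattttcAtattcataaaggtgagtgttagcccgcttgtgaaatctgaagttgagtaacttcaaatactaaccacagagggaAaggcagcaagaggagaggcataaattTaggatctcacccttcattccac
The longest protein-coding transcripts of the pair were 94.2% identical over 1777 aligned positions, and their last 500 bases, where a 3' library reads, were 96.4% identical with 18 differences. Of the 75-base windows in those last 500 bases of SERPINB3, 8.92% occurred unchanged in a SERPINB4 transcript, and of the 50-base windows 21.5%, the lengths being those of the sequencing kits in the labels. Part of the reads of either gene could thus have been assigned to neither or to the other, so the sum of both is given beside each gene.

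SERPINB5 is shown as the member with the most UMIs and, in both knockout lines, a steady decline along the VIM share. Its 250 bases before the RefSeq start, chr18:63476708-63476957 on the plus strand, are printed with capitals on matches to 2 motifs searched on both strands, the AP-1 motif TGANTCA and the E-box. The E-box is CACCTG on either strand, letters that ZEB and SNAI factors are known to bind, and the match shown lies on the other strand.
SERPINB5: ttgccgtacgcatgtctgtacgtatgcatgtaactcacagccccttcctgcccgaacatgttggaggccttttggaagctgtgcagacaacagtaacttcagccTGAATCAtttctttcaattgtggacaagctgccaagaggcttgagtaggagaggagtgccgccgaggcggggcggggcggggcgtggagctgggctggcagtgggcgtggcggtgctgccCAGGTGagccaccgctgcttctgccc
It held 1 match to each, the AP-1 match starting 146 bases and the E-box 26 bases before the start. The AP-1 letters were found in 6.57% and the E-box letters in 17.5% of 35116 windows of that length before RefSeq starts. SERPINB13 also held 1 match to each. SERPINB7 has 3 annotated starts, and the windows of 2 of them held 2 AP-1 matches each. No match to either motif was found in these windows of SERPINB1, SERPINB3 and SERPINB4.

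Levels are UMIs summed over the cells of a group and scaled to the same total of gene UMIs for every group (CPM), with exact 95% Poisson intervals. Ratios carry exact conditional binomial intervals and shares of cells exact Clopper-Pearson intervals. All of these cover counting error only, since 1 sample per line allows no test. A gene was measured in a comparison where it reached 10 CPM in either group, and was called higher or lower at 1.5-fold.

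**Figure D1:**
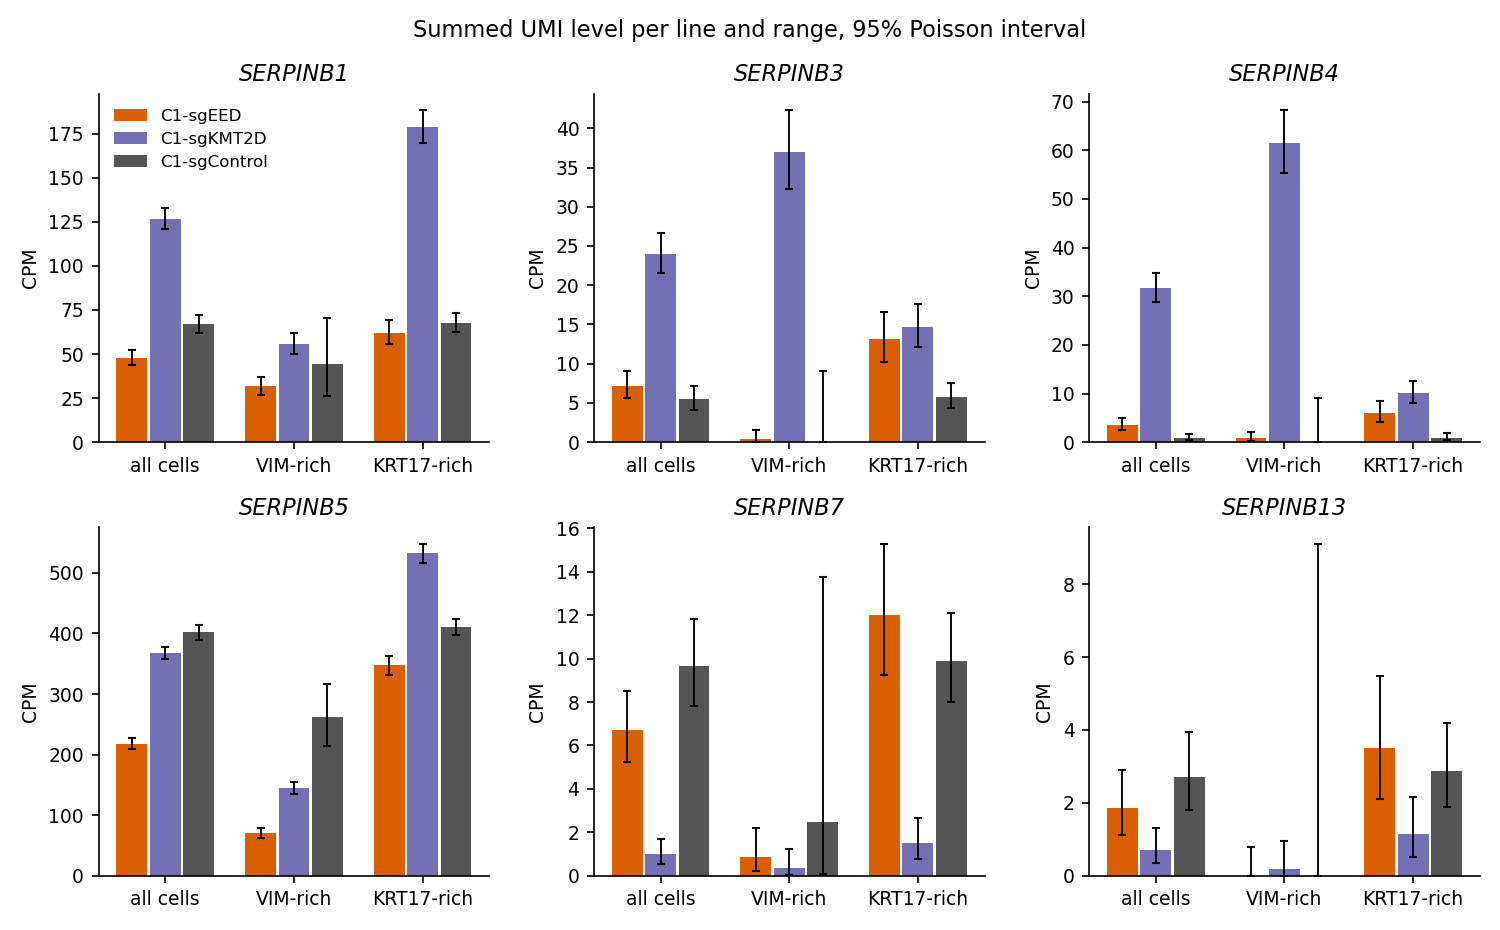
Each panel plots the level of 1 serpin in CPM, with bars for C1-sgEED, C1-sgKMT2D and C1-sgControl in all cells, VIM-rich cells and KRT17-rich cells, and lines for 95% Poisson intervals. SERPINB3 and SERPINB4 stand out in VIM-rich C1-sgKMT2D cells, at 37.0 and 61.6 CPM, while SERPINB5 and SERPINB1 are highest in KRT17-rich C1-sgKMT2D cells.

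SERPINB5, or maspin, is a non-inhibitory serpin known as a tumour suppressor of mammary epithelium. Over all cells it was at 218 CPM (209 to 227) in C1-sgEED, 367 (357 to 378) in C1-sgKMT2D and 402 (389 to 414) in C1-sgControl. C1-sgEED was the low line, 1.84-fold below C1-sgControl (1.75 to 1.94), whereas C1-sgKMT2D was within 1.5-fold of it, at a ratio of 0.91 (0.88 to 0.95). The 2 knockout lines each had about as many VIM-rich as KRT17-rich cells. Within the KRT17-rich range the gap of C1-sgEED to C1-sgControl narrowed, while C1-sgKMT2D went from below C1-sgControl to above it.

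Among KRT17-rich cells SERPINB5 stood at 347 CPM (332 to 364) in C1-sgEED, 532 (516 to 548) in C1-sgKMT2D and 411 (398 to 424) in C1-sgControl. The lines thus lay on either side of C1-sgControl, at ratios of 0.85 (0.80 to 0.89) and 1.30 (1.24 to 1.35), neither past 1.5-fold. Their direct ratio, C1-sgKMT2D over C1-sgEED, was 1.53 (1.45 to 1.62).

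VIM-rich cells carried less of it in both knockout lines. C1-sgEED had 70.3 CPM (62.9 to 78.3) in VIM-rich cells, against 347 CPM in KRT17-rich cells, a 4.95-fold lower level (4.40 to 5.58). C1-sgKMT2D had 145 CPM (135 to 155), against 532 CPM, which is 3.68-fold lower (3.42 to 3.97). How far it fell depended on how the ranges were drawn: with a 3-fold margin between KRT17 and VIM UMIs the C1-sgKMT2D ratio was 0.11 in place of 0.27 and the C1-sgEED ratio 0.13 in place of 0.20. The 67 VIM-rich C1-sgControl cells kept 262 CPM (214 to 317). VIM-rich C1-sgKMT2D cells were 2.06-fold above VIM-rich C1-sgEED cells (1.81 to 2.34), but only 1.32-fold with the 3-fold margin and 1.15-fold when ranges were drawn by a mesenchymal list share.

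Share of cells gave the same order. After thinning each cell to 2000 UMIs, 28.2% of C1-sgEED cells, 37.5% of C1-sgKMT2D cells and 51.7% of C1-sgControl cells had a SERPINB5 UMI, and without thinning 43.4%, 58.0% and 81.0% of cells. The lowest thinned share was 11.4%, in VIM-rich C1-sgEED cells with a median depth of 3483.5 UMIs. It bounds what free RNA of the shared library gives.

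SERPINB1 inhibits neutrophil elastase and related serine proteases of granulocytes. It was at 47.7 CPM (43.5 to 52.1) in C1-sgEED, 127 (121 to 133) in C1-sgKMT2D and 67.0 (62.0 to 72.3) in C1-sgControl. The knockouts lay on opposite sides of C1-sgControl: C1-sgKMT2D was 1.89-fold higher (1.73 to 2.07), and C1-sgEED stood at a ratio of 0.71 (0.63 to 0.80), short of a 1.5-fold change.

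In the KRT17-rich range C1-sgKMT2D stood at 179 CPM (169.7 to 188). C1-sgEED had 62.1 CPM (55.6 to 69.1) there and C1-sgControl 67.8 CPM (62.7 to 73.3). The ratio to C1-sgControl there was 2.64 (2.40 to 2.90) for C1-sgKMT2D and 0.91 (0.80 to 1.05) for C1-sgEED, an interval that includes 1. In VIM-rich cells the level was 31.7 CPM in C1-sgEED, 55.7 in C1-sgKMT2D and 44.5 in C1-sgControl, the last from 18 UMIs (26.4 to 70.3). C1-sgKMT2D was 1.76-fold above C1-sgEED there (1.44 to 2.15), with 1.31 the lowest ratio under other settings. VIM-rich cells were 1.96-fold below KRT17-rich cells in C1-sgEED (1.61 to 2.39) and 3.21-fold below in C1-sgKMT2D (2.84 to 3.63). The C1-sgKMT2D step reached a ratio of 0.21 with the 3-fold margin, in place of 0.31. Thinned shares of KRT17-rich cells with a UMI were 10.1% in C1-sgEED, 23.2% in C1-sgKMT2D and 11.0% in C1-sgControl, so the higher level came with more positive cells.

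SERPINB3 and SERPINB4, the squamous cell carcinoma antigens, differ in target: SERPINB3 is known to inhibit lysosomal cysteine cathepsins and SERPINB4 chymotrypsin-like serine proteases. SERPINB3 was at 7.21 CPM (5.67 to 9.06) in C1-sgEED, 24 (21.5 to 26.7) in C1-sgKMT2D and 5.44 (4.09 to 7.10) in C1-sgControl. SERPINB4 was at 3.61 CPM (2.54 to 4.97) in C1-sgEED, 31.7 (28.8 to 34.8) in C1-sgKMT2D and 0.91 (0.41 to 1.72) in C1-sgControl, where 9 UMIs were counted. C1-sgKMT2D was the high line for both, with SERPINB3 4.41-fold above C1-sgControl (3.30 to 5.996) and SERPINB4 34.9-fold (18.2 to 76.9).

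Summed, the pair stood at 10.8 CPM (8.90 to 13.0) in C1-sgEED, 55.7 (51.8 to 59.7) in C1-sgKMT2D and 6.35 (4.88 to 8.12) in C1-sgControl. Both knockouts were above C1-sgControl by the sum, C1-sgKMT2D 8.77-fold (6.78 to 11.5) and C1-sgEED 1.71-fold (1.24 to 2.36). The C1-sgEED ratio was no longer past 1.5-fold with a stricter cell filter, at 1.42 (0.95 to 2.14), or as a mean over thinned cells, at 1.27 (0.75 to 2.17). In C1-sgControl the 10 cells with the most UMIs of the pair held 52.4% of them, so that level rests on few cells.

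The pair went opposite ways with VIM in the 2 knockout lines. In C1-sgEED, VIM-rich cells had 6 UMIs of the pair, or 1.28 CPM (0.47 to 2.78), against 19.2 CPM (15.7 to 23.3) in KRT17-rich cells, a 15.0-fold lower level (6.68 to 41.9), or a ratio of 0.066. In C1-sgKMT2D, VIM-rich cells had 98.6 CPM (90.7 to 107), against 24.9 (21.6 to 28.6) in KRT17-rich cells, a 3.96-fold higher level (3.36 to 4.67). With ranges drawn by the mesenchymal list share C1-sgEED had a ratio of 0.12 and C1-sgKMT2D one of 6.04, and with the 3-fold margin that of C1-sgEED was 0.043. C1-sgControl had 0 UMIs of the pair in its 67 VIM-rich cells, which allows up to 9.11 CPM, and 6.70 CPM (5.15 to 8.57) in KRT17-rich cells.

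Each gene of the pair, counted separately, showed that step, though SERPINB4 in C1-sgEED was below 10 CPM in both ranges. SERPINB4 in C1-sgKMT2D was at 61.6 CPM (55.4 to 68.3) in VIM-rich cells, against 10.2 (8.10 to 12.7) in KRT17-rich cells, 6.04-fold higher (4.73 to 7.78). SERPINB3 was at 37.0 CPM (32.3 to 42.3), against 14.7 (12.2 to 17.6), 2.51-fold higher (2.00 to 3.18), and 4.26-fold with ranges drawn by the mesenchymal list share. In C1-sgEED, SERPINB3 had 2 UMIs or 0.43 CPM (0.05 to 1.54) in VIM-rich cells, against 13.1 (10.2 to 16.5) in KRT17-rich cells, and SERPINB4 had 4 UMIs or 0.85 CPM (0.23 to 2.18), against 6.10 (4.20 to 8.56). Between VIM-rich cells of the knockouts, C1-sgKMT2D over C1-sgEED, the ratio of the sum was 77.2 (35.2 to 211), which rests on those 6 UMIs in C1-sgEED. That ratio was 117 with the 3-fold margin and 132 after thinning, and 67.4 was its lowest under other settings.

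**Figure D2:**
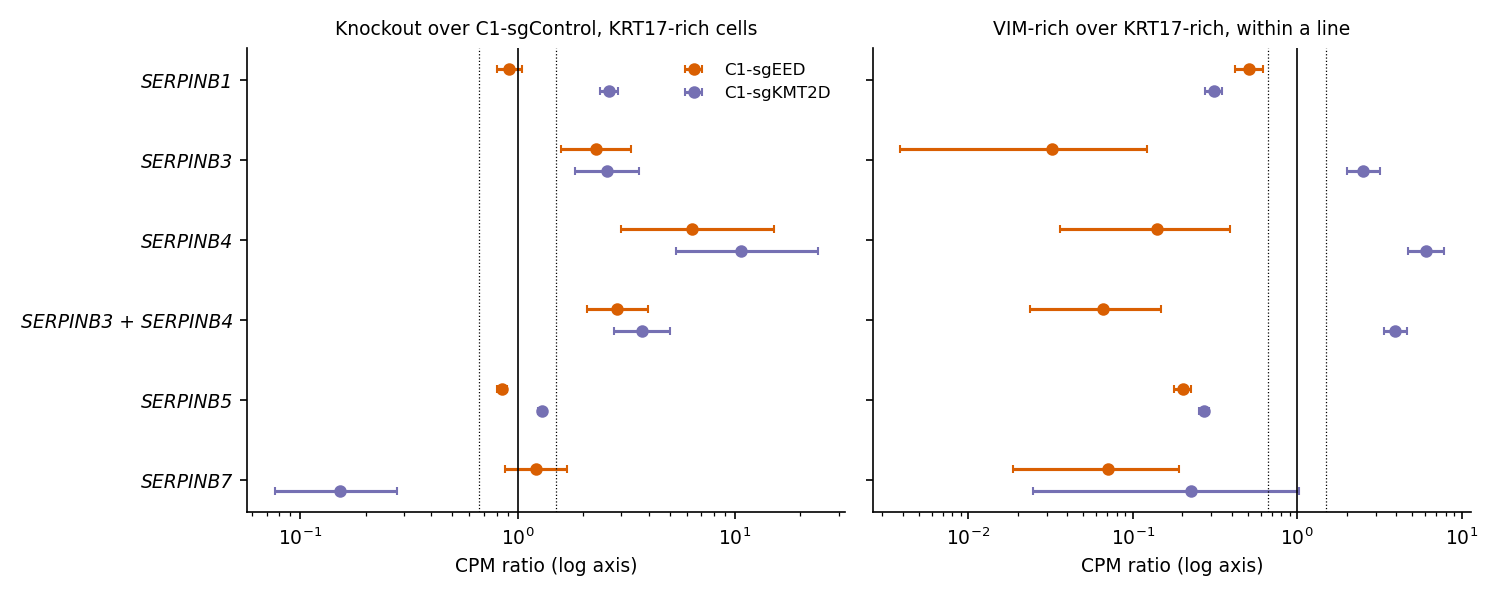
Points give CPM ratios on a log axis with 95% exact intervals for C1-sgEED and C1-sgKMT2D, on the left over C1-sgControl in KRT17-rich cells and on the right of VIM-rich over KRT17-rich cells within a line; dotted lines mark 1.5-fold. On the right, SERPINB3 and SERPINB4 lie above 1 in C1-sgKMT2D and below 1 in C1-sgEED, while SERPINB1 and SERPINB5 lie below 1 in both.

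Within KRT17-rich cells both knockouts were above C1-sgControl for the pair. The sum was 2.87-fold higher in C1-sgEED (2.08 to 3.99) and 3.72-fold higher in C1-sgKMT2D (2.79 to 5.02), and the ratio of C1-sgKMT2D over C1-sgEED was 1.30 (1.02 to 1.66), or 1.68 by the mean over cells thinned to 2000 UMIs. SERPINB3 alone was 2.28-fold higher in C1-sgEED (1.58 to 3.32) and 2.56-fold higher in C1-sgKMT2D (1.84 to 3.61). SERPINB4 was 10.7-fold higher in C1-sgKMT2D (5.34 to 24.1), against 9 UMIs in C1-sgControl.

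The balance within the pair also differed between groups. SERPINB4 made up 31.7% of the pair's UMIs in KRT17-rich C1-sgEED cells (22.9 to 41.6), 40.9% in KRT17-rich C1-sgKMT2D cells (34.0 to 48.1) and 14.3% in KRT17-rich C1-sgControl cells (6.75 to 25.4). In VIM-rich C1-sgKMT2D cells it made up 62.4% (58.3 to 66.4). The shares of SERPINB4 in C1-sgControl and in VIM-rich C1-sgKMT2D cells had intervals that do not meet. These intervals treat UMIs as independent, and UMIs of 1 cell need not be, so they can be too narrow. The 10 cells with the most held 52.4% of the pair's UMIs in KRT17-rich C1-sgControl cells and 24.2% in VIM-rich C1-sgKMT2D cells.

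**Figure D3:**
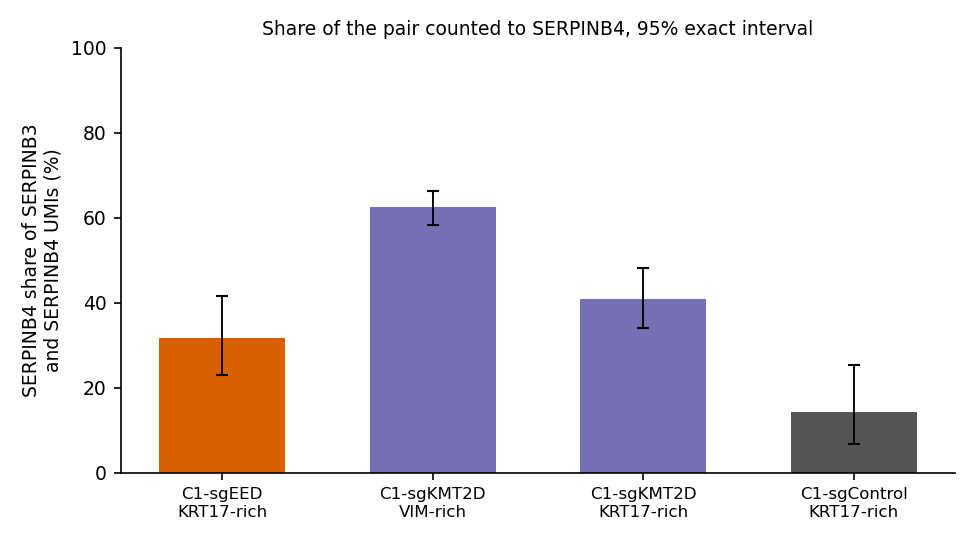
Bars give the percentage of SERPINB3 and SERPINB4 UMIs counted to SERPINB4 in 4 groups of cells with enough UMIs, with 95% exact intervals. The share is highest in VIM-rich C1-sgKMT2D cells, at 62.4%, and lowest in KRT17-rich C1-sgControl cells, at 14.3%.

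The pair was found in a minority of cells. After thinning, 11.6% of VIM-rich C1-sgKMT2D cells (9.72 to 13.6) and 4.49% of KRT17-rich C1-sgKMT2D cells (3.35 to 5.87) had a UMI of either gene, and without thinning 15.7% and 11.1%. VIM-rich C1-sgEED cells of the same library were at 0.18% thinned and 0.42% unthinned, with a median depth of 3483.5 UMIs beside 4576 in VIM-rich C1-sgKMT2D cells. The C1-sgEED share bounds what free RNA of the shared droplet library gives. Up to 20 UMIs of the pair were counted in 1 VIM-rich C1-sgKMT2D cell, and the 10 cells with the most held 24.2%.

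The 2 genes were often seen in the same cells. In thinned VIM-rich C1-sgKMT2D cells, SERPINB4 was found in 27 of 61 cells with SERPINB3, or 44.3% (31.5 to 57.6), and in 6.32% of cells without it (4.91 to 7.98). In KRT17-rich C1-sgKMT2D cells the shares were 14.7% (4.95 to 31.1) with SERPINB3 and 1.48% (0.85 to 2.39) without. With 8.92% of 75-base windows shared, the part of misassigned reads in this overlap was not tested. SERPINB5 was found as often with SERPINB3 as without it in those KRT17-rich cells, at 55.9% (37.9 to 72.8) and 58.4% (55.4 to 61.4).

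Along 5 steps of the VIM share, from the lowest to the highest, the pair in C1-sgKMT2D stood at 25.0, 24.4, 30.8, 91.2 and 117 CPM. It stayed level over the first 3 steps and was high in the last 2. In C1-sgEED it was at 26.7, 8.26, 2.60, 3.03 and 1.06 CPM, already low at the second step. The pair in C1-sgControl was at 9.46 and 1.81 CPM in the first 2 steps, from 58 and 5 UMIs. It had 0 UMIs in the later steps, of 128, 29 and 3 cells. SERPINB5 declined through all 5 steps in both knockouts, at 589, 523, 389.7, 218 and 59.5 CPM in C1-sgKMT2D and 379.8, 309.6, 224, 162 and 43.1 CPM in C1-sgEED. It declined in C1-sgControl as well, at 445, 354, 288 and 216 CPM before the last step of 3 cells. SERPINB1 declined in C1-sgKMT2D too, at 216, 168, 107, 59.6 and 44.1 CPM. In C1-sgEED SERPINB1 was at 63.6, 67.2, 35.1, 24.2 and 31.6 CPM, lower in the later steps but without a fall at every step. The cells with the lowest VIM share had a similar level of the pair in both knockouts, C1-sgEED having 26.7 CPM (21.4 to 32.8) and C1-sgKMT2D 25.0 CPM (19.8 to 31.2), with intervals that overlap.

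**Figure D4:**
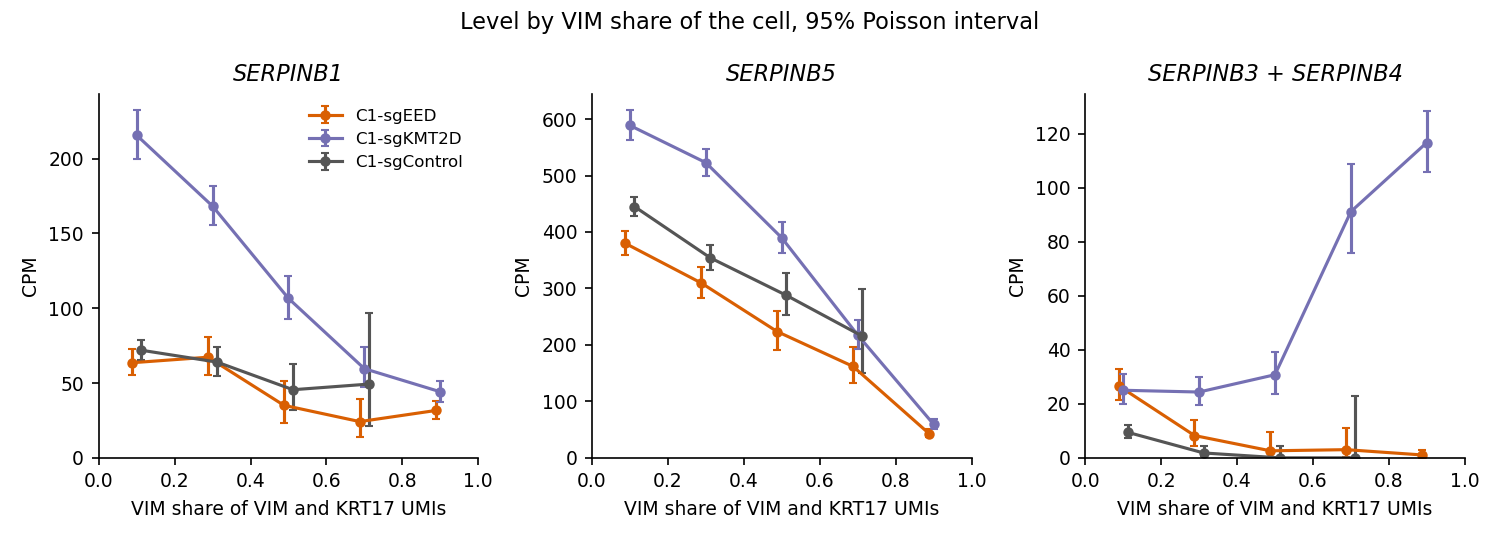
Points give the level in CPM against the VIM share of a cell's VIM and KRT17 UMIs in steps of 0.2, with 95% Poisson intervals, for C1-sgEED, C1-sgKMT2D and C1-sgControl; the last C1-sgControl step, with 3 cells, is not drawn. SERPINB3 and SERPINB4 together climb to 117 CPM in C1-sgKMT2D and drop to 1.06 CPM in C1-sgEED. SERPINB5 declines in both and over the drawn steps of C1-sgControl.

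SERPINB7, or megsin, is a serpin of the upper epidermis whose loss causes a palmoplantar keratoderma. It was at 6.73 CPM (5.23 to 8.51) in C1-sgEED, 1.00 (0.55 to 1.68) in C1-sgKMT2D and 9.67 (7.83 to 11.8) in C1-sgControl. C1-sgKMT2D was the low line with 14 UMIs, 9.64-fold below C1-sgControl (5.48 to 18.3). The 9.67 CPM in C1-sgControl is just under the 10 CPM needed to enter the counts of genes, so this difference is not in them.

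Among KRT17-rich cells SERPINB7 stood at 12.01 CPM (9.27 to 15.3) in C1-sgEED, 1.51 (0.78 to 2.64) in C1-sgKMT2D and 9.89 (7.98 to 12.1) in C1-sgControl. The C1-sgKMT2D level there was 7.95-fold below C1-sgEED (4.26 to 16.2), a ratio of 0.13. It was 0.19 without the deepest 10% of cells, and after thinning no such C1-sgKMT2D cell kept a UMI. In C1-sgEED, VIM-rich cells had 0.85 CPM, from 4 UMIs, and were 14.1-fold below KRT17-rich cells (5.25 to 53.3), a ratio of 0.071 that was 0.036 with the 3-fold margin. In C1-sgKMT2D its level was thus below C1-sgControl where those of SERPINB1, SERPINB3 and SERPINB4 were above.

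SERPINB13, or headpin, inhibits cathepsins L and K. It stayed low throughout, at 1.85 CPM (1.12 to 2.89) in C1-sgEED, 0.72 (0.34 to 1.32) in C1-sgKMT2D and 2.72 (1.79 to 3.96) in C1-sgControl. It reached 10 CPM in no group. In C1-sgEED all of its 19 UMIs in scored cells were in KRT17-rich cells, at 3.51 CPM, with 0 in 1192 VIM-rich cells, which allows up to 0.785 CPM. C1-sgKMT2D was 3.80-fold below C1-sgControl (1.78 to 8.79), from 10 and 27 UMIs.

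Counts of members past 1.5-fold are set beside the same counts over all measured genes, and nothing is read from them, since the members were named with these contrasts known. In C1-sgEED over C1-sgControl, 0 of 2 measured members were higher and 1 lower, where 11.6% of 7894 genes were higher and 8.87% lower. In C1-sgKMT2D over C1-sgControl, 3 of 4 were higher and 0 lower, where 7.72% of 7680 genes were higher and 14.5% lower. In C1-sgKMT2D over C1-sgEED, 4 of 4 were higher, where 3.42% were higher and 14% lower.

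Within ranges the counts were as follows. For KRT17-rich cells, 1 of 4 members was higher and 0 lower in C1-sgEED over C1-sgControl, beside 8.23% and 5.22% of genes. In C1-sgKMT2D over C1-sgControl 3 of 4 were higher and 0 lower, beside 6.59% and 13.9%. In C1-sgKMT2D over C1-sgEED 3 of 5 were higher and 1 lower, beside 2.49% and 13.5%. VIM-rich over KRT17-rich cells gave 0 higher and 4 lower of 4 members in C1-sgEED, beside 13.6% and 14.8% of genes, and 2 higher and 2 lower of 4 in C1-sgKMT2D, beside 7.49% and 7.42%. VIM-rich C1-sgKMT2D over VIM-rich C1-sgEED cells gave 4 of 4 higher, beside 9.45% higher and 19.5% lower. Within hashtag 2, which the labels assign to no line, VIM-rich over KRT17-rich cells gave 2 lower of 2, beside 6.1% of genes higher and 7.41% lower. The median log2 ratio of the measured members was 1.43 in C1-sgKMT2D over C1-sgControl, where that of all genes was -0.02, and -0.68 in C1-sgEED over C1-sgControl, where that of all genes was 0.09. The comparisons with C1-sgControl share its cells.

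Squamous differentiation genes were set beside the members. Of 17 listed genes, 8 were measured in C1-sgKMT2D over C1-sgControl, with 0 higher and 5 lower, and 10 in C1-sgEED over C1-sgControl, with 3 higher and 6 lower. Among KRT17-rich cells 1 was higher and 5 lower of 8 in C1-sgKMT2D, and 6 were higher and 6 lower of 12 in C1-sgEED. Beside this and the later lists, 11.6% of all genes were higher and 8.87% lower in C1-sgEED over C1-sgControl, over all cells. In C1-sgKMT2D over C1-sgControl these shares were 7.72% and 14.5%. Among KRT17-rich cells they were 8.23% and 5.22% in C1-sgEED and 6.59% and 13.9% in C1-sgKMT2D. Nothing is read from the counts of the lists. The cornified envelope gene SPRR1B was at 31.8 CPM in C1-sgEED, 7.81 in C1-sgKMT2D and 136 in C1-sgControl. It is 1 of the 6 lower in C1-sgEED over all cells. The 3 higher there were CNFN, 3.30-fold (2.52 to 4.38), CRCT1, 2.94-fold (2.35 to 3.71), and S100A7, 1.51-fold (1.11 to 2.05). Within C1-sgControl, the 264 cells with an SPRR1B UMI after thinning had more SERPINB1, at 140.2 CPM (110.0 to 176), against 51.0 (42.9 to 60.2) in the 1372 without. SERPINB3 followed, at 26.5 CPM (14.5 to 44.5) from 14 UMIs, against 2.92 (1.26 to 5.74) from 8 UMIs. Before thinning, the 10 cells with the most held 53.7% of the SERPINB3 UMIs of C1-sgControl. SERPINB5 in the SPRR1B-positive cells was at 532 CPM (472 to 598), against 397 (373 to 421) in the rest. SERPINB7 and SERPINB13 stood at 20.8 and 9.47 CPM in these cells, against 7.65 and 1.82 CPM in the rest, with 11 and 5 UMIs in the positive cells and intervals that overlap for both. These SPRR1B-positive cells had a median depth of 5210 UMIs, against 5907.

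Of the other clade B serpins, 7 were listed and 3 measured, with 0 higher and 1 lower in C1-sgEED and 0 higher and 2 lower in C1-sgKMT2D over C1-sgControl. SERPINB2, the plasminogen activator inhibitor of the same cluster, was at 6.73 CPM in C1-sgEED, 2.22 in C1-sgKMT2D and 37.6 in C1-sgControl, 5.59-fold (4.31 to 7.33) and 16.9-fold lower (11.7 to 25.3). SERPINB8 was at 14.5, 7.67 and 21.2 CPM in the same order of lines. SERPINB6, widely expressed, was at 81.6 CPM in C1-sgEED, 84.1 in C1-sgKMT2D and 92.4 in C1-sgControl, within 1.5-fold. SERPINB9, an inhibitor of granzyme B, was below 10 CPM, at 0.29 CPM in C1-sgEED, 0.93 in C1-sgKMT2D and 0.10 in C1-sgControl.

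Genes flanking the clusters were compared in the same way. On chromosome 18, 2 of 9 listed neighbours were measured, and 0 were past 1.5-fold in either knockout over C1-sgControl. They were KDSR, a sphingolipid enzyme, at 58.2, 92.6 and 73.1 CPM in C1-sgEED, C1-sgKMT2D and C1-sgControl, and VPS4B, a membrane-remodelling ATPase, at 44.7, 42.5 and 60.1 CPM. Near SERPINB1 on chromosome 6, 6 of 10 neighbours were measured. There TUBB2A was 1.88-fold higher in C1-sgEED (1.69 to 2.10) and BPHL 1.61-fold lower in C1-sgKMT2D (1.33 to 1.96), with no other past 1.5-fold. That is 1 of 6 in each, beside 11.6% of all genes higher and 8.87% lower in C1-sgEED and 7.72% and 14.5% in C1-sgKMT2D.

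Among proteases that these serpins can meet, cysteine cathepsins were abundant. Of 12, 7 were measured in C1-sgEED over C1-sgControl, with 2 higher and 1 lower, and 6 in C1-sgKMT2D over C1-sgControl, with 2 higher and 1 lower. CTSL, a target of SERPINB3 and SERPINB13, was at 106 CPM in C1-sgEED, 106 in C1-sgKMT2D and 68.4 in C1-sgControl, 1.55-fold higher in each. CTSB was at 228, 359 and 237 CPM in the same order, 1.52-fold higher in C1-sgKMT2D (1.44 to 1.59). CTSC, which activates granule serine proteases, was at 481 CPM in C1-sgEED, 1138 in C1-sgKMT2D and 993 in C1-sgControl, and CTSV, a keratinocyte cathepsin, at 101, 56.4 and 109 CPM.

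Serine proteases were scarcer. None of the 8 listed genes for neutrophil and mast cell proteases and their relatives was measured. Some of the 8 encode known targets of SERPINB1 or SERPINB4. The 8 summed to 2.34 CPM in C1-sgEED, 0.14 in C1-sgKMT2D and 0.60 in C1-sgControl. Of 12 epidermal kallikreins, matriptase and their relatives, 2 were measured over all cells, and both were lower in each knockout: ST14, or matriptase, at 20.9, 12.5 and 34.6 CPM, and its partner PRSS8 at 13.6, 3.44 and 27.8 CPM. Among KRT17-rich cells, 3 of 5 measured were higher and 0 lower in C1-sgEED, and 0 of 2 were higher and 2 lower in C1-sgKMT2D, with ST14 at 35.8 CPM in C1-sgEED, 18.1 in C1-sgKMT2D and 34.1 in C1-sgControl. In these cells the desquamation protease KLK5 was at 16.4 CPM in C1-sgEED, 0.25 in C1-sgKMT2D and 4.47 in C1-sgControl, and KLK7 at 14.04, 0 and 4.57 CPM, the same order of lines as SERPINB7.

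Of 11 other protease inhibitors of epithelium, 8 were measured over all cells, with 0 higher and 4 lower in C1-sgEED and 0 higher and 6 lower in C1-sgKMT2D over C1-sgControl. Among KRT17-rich cells 1 was higher and 2 lower in C1-sgEED, and 0 were higher and 4 lower in C1-sgKMT2D. Of all genes over all cells, 11.6% were higher and 8.87% lower in C1-sgEED, and 7.72% and 14.5% in C1-sgKMT2D. Among KRT17-rich cells these shares were 8.23% and 5.22% in C1-sgEED, and 6.59% and 13.9% in C1-sgKMT2D. The cathepsin inhibitor CSTA was at 162 CPM in C1-sgEED, 138 in C1-sgKMT2D and 394 in C1-sgControl. The elastase inhibitor SLPI was at 126 CPM in C1-sgEED, 177 in C1-sgKMT2D and 269.8 in C1-sgControl. PI3, or elafin, was at 12.9, 8.02 and 49.6 CPM in the same order. CST6 was 18.6-fold lower in C1-sgKMT2D (12.3 to 29.5), at 1.72 CPM, against 32.0 CPM in C1-sgControl.

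Of 14 genes known to induce SERPINB3 and SERPINB4 or to relay such signals, 10 were measured in each knockout over C1-sgControl, with 1 higher and 4 lower in each. The higher one in both was the interleukin 1 receptor IL1R1, at 13.6 CPM in C1-sgEED, 16.6 in C1-sgKMT2D and 4.13 in C1-sgControl. The receptor IL4R, through which type 2 cytokines induce the pair in keratinocytes, was at 14.2, 6.81 and 35.2 CPM in the same order, and STAT6 at 14.7, 14.1 and 23.4 CPM. TP63, the master factor of stratified epithelium, was at 8.77, 9.82 and 23.4 CPM.

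Across 8 groups of line and range with at least 50 cells, hashtag 2 included, the genes most like each serpin were ranked by Pearson's r of log2(CPM + 1) among 6273 genes of at least 20 CPM (6274 for SERPINB7). The groups share 1 library and differ in depth and size, the smallest having 67 cells, so these values are descriptive. SERPINB5 was closest to AIM1 (0.97), the focal adhesion gene TNS4 (0.97) and the basal keratin KRT5 (0.97). SERPINB1 was closest to RBM33 (0.99), which spans only 26.2 to 31.1 CPM, SNAI2 (0.98) and PITPNC1 (0.94). For SERPINB3 the list was QARS (0.97), TRIB1 (0.92) and SERPINB4 (0.92), and for SERPINB4 it was PHF20 (0.99), ATP5D (0.95) and DKC1 (0.94). For SERPINB7 it included NUPR1 (0.96) and ZFYVE21 (0.96). Several of these genes changed little across the groups, where SERPINB4 ran from 0 to 61.6 CPM. ATP5D spanned 334 to 423 CPM, PHF20 59.3 to 95.7 and DKC1 74.1 to 120. QARS spanned 39.5 to 68.4 CPM and ZFYVE21 49.0 to 77.6. Between members, r was 0.92 for SERPINB3 and SERPINB4, 0.84 for SERPINB1 and SERPINB5, 0.80 for SERPINB7 and SERPINB13, and -0.10 for SERPINB4 and SERPINB5.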

How the data were processed

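The authors deposited a matrix of UMI counts, whole numbers per gene or hashtag and barcode, made with Cell Ranger 3.0.2 on GRCh38, per the submitters' processing notes. Cells of 3 lines were stained with hashtag antibodies and run together on a 10x 3' kit, per the labels' protocols. The matrix held 10336 barcodes, and 9193 with at least 500 genes and at most 20% mitochondrial UMIs were kept. Hashtags were called by a Gaussian mixture of 2 components on log10 counts, and 826 positive for several (8.99%) and 26 for none were left out. Doublets of cells with the same hashtag were left in. No barcode was duplicated. The labels name no line for hashtag 2, so no ratio of its cells to a line was formed.

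The members, the gene lists, the ranges and the rules were chosen with earlier results of these data known. Other genes named are list members of at least 10 CPM that differed 1.5-fold or more from C1-sgControl, and for each member the 3 most alike, of which 1 is not reported here. KDSR, VPS4B, SERPINB6, SERPINB9, KLK5, KLK7, SPRR1B, KRT17, VIM, EED and KMT2D were named beside these for context. Of the 9 neighbours on chromosome 18, 8 were found by symbol. UMIs were summed over cells, with no pseudocount except in the likeness of genes and in the median log2 ratios (1 CPM in both). Thinning drew 2000 UMIs per cell and left out shallower cells, 167 in C1-sgEED, 114 in C1-sgKMT2D and 84 in C1-sgControl. Upstream sequences are RefSeq's, matched by symbol for all 6 members. The counting was tested on simulated data. Each line is 1 sample, so no test was possible. Depth was 10256770 UMIs in C1-sgEED, 13957344 in C1-sgKMT2D and 9927122 in C1-sgControl. Alternatives were other filters, hashtag calls, scalings, thresholds and ranges, 11 in all. Scripts used Python 3.11.15, numpy 2.4.6, scipy 1.17.1, pandas 2.3.3, scikit-learn 1.9.0, Biopython 1.88 and matplotlib 3.10.9.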

Additional observations from a re-analysis of the deposited data

Results flagged for a closer look

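SERPINB1 lay on opposite sides of C1-sgControl over all cells, at a ratio of 1.89 in C1-sgKMT2D and 0.71 in C1-sgEED. SERPINB5 did so among KRT17-rich cells, at 1.30 in C1-sgKMT2D and 0.85 in C1-sgEED. The step between VIM-rich and KRT17-rich cells ran opposite ways in the knockouts for SERPINB3, at 2.51 in C1-sgKMT2D and 0.0325 in C1-sgEED, and for SERPINB4, at 6.04 in C1-sgKMT2D and 0.14 in C1-sgEED. Their sum gave 3.96 in C1-sgKMT2D and 0.0665 in C1-sgEED. SERPINB4 in C1-sgEED was below 10 CPM in both ranges. In each case both counting intervals exclude 1, and with 1 sample per line the difference was not tested.

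Cells of hashtag 2, which the labels put in no line, lay above the counting interval of C1-sgControl in 3 values. SERPINB1 was at 95.6 CPM over all of them and at 148 CPM in their KRT17-rich cells, and SERPINB5 at 623 CPM in their KRT17-rich cells. SERPINB5 over all of them, at 410.0 CPM, lay inside that interval.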

How the results depend on the processing

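Beside the settings reported, 11 others were tried, of which 7 or 9 apply to a given ratio. No measured member's ratio past 1.5-fold crossed 1. Among KRT17-rich cells 3 smaller ratios did: SERPINB1 in C1-sgEED over C1-sgControl at 1.01 with the stricter filter, SERPINB7 in the same comparison at 0.99 without the deepest cells, and SERPINB3 in C1-sgKMT2D over C1-sgEED at 0.92 with the 3-fold margin. Of the counts of members, 169 were within 1.5 times of those reported and 17 were not. Of the ratios, 329 stayed within the counting interval and 41 did not. With members of at least 2 CPM, the counts took in SERPINB7, SERPINB4 or SERPINB13: 2 lower in C1-sgKMT2D over C1-sgControl over all cells and 2 among KRT17-rich cells, in place of 0; 1 lower over all cells and 2 among KRT17-rich cells in C1-sgKMT2D over C1-sgEED, in place of 0 and 1; and 1 higher over all cells and 2 among KRT17-rich cells in C1-sgEED over C1-sgControl, in place of 0 and 1. For lower members in C1-sgKMT2D over C1-sgControl among KRT17-rich cells, the count was 1 with no mitochondrial limit, 1 without mitochondrial and ribosomal UMIs and 1 with a 3-fold margin between KRT17 and VIM UMIs; over all cells it was 1 without mitochondrial and ribosomal UMIs. The 1 lower member in C1-sgKMT2D over C1-sgEED among KRT17-rich cells, SERPINB7, dropped under 10 CPM, giving 0 without the 10% deepest cells and 0 after thinning, while its ratio stayed between 0 and 0.19. In C1-sgEED over C1-sgControl, 2 were lower with ratios centred on all genes and 0 at 2-fold. In C1-sgKMT2D over C1-sgEED, 1 in place of 3 was higher among KRT17-rich cells at 2-fold, and 2 in place of 4 among VIM-rich cells with the 3-fold margin and 2 with ranges by the mesenchymal list share. SERPINB4 in C1-sgKMT2D over C1-sgEED was 15.5 after thinning, in place of 8.78. Other causes were not tested. Centring shifts ratios by 0.11 (log2) in C1-sgEED over C1-sgControl. No paired analysis was possible because each line is 1 sample. Members below 10 CPM rest on few UMIs.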

Other observations

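The 1935 cells of hashtag 2 held little SERPINB3 and SERPINB4. Their 1306 VIM-rich cells had 1.12 CPM of the pair (0.48 to 2.21) and their 575 KRT17-rich cells 2.31 CPM (1.06 to 4.38), from 17 UMIs in all. SERPINB5 was at 288 CPM (276 to 301) in VIM-rich and 623 CPM (599 to 649) in KRT17-rich hashtag 2 cells, and SERPINB1 at 67.7 (61.8 to 74.0) and 148 (136 to 161). SERPINB7 was at 4.06 CPM (2.72 to 5.83) and 6.41 CPM (4.15 to 9.47).

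In VIM-rich C1-sgKMT2D cells thinned to 2000 UMIs, the 40 cells with a UMI of the fatty acid carrier FABP4 had 8 UMIs of SERPINB3 and SERPINB4 (43.2 to 197 CPM), against 122 CPM (108 to 138) in the 1050 without, with intervals that overlap. SERPINB5 was at 12.5 CPM, from 1 UMI (0.32 to 69.6), against 113 CPM (98.9 to 128). FABP4 was singled out because it marks a set of these cells in earlier results.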
